A study of Mus musculus with 16 samples.

Results

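The genes described here are those whose deposited symbol began with Mrpl or Mrps and a number, the names under which most proteins of the mitochondrial ribosome are listed. The table held 78 of them among 17951 genes, 49 with Mrpl symbols and 29 with Mrps symbols, named for the large and the small subunit, and the annotation gave all 78 as protein coding. All 78 were in the deposited table after the authors' filter on low counts and all entered the test. RNA had been sequenced from Cd11b+ Cd45+ microglia, the resident macrophages of the brain, sorted from 5xFAD mice and wild-type controls after an injection of Methoxy-X04 (Me-X04), a dye that binds the beta-sheets of amyloid. The 5xFAD line is a transgenic model of amyloid deposition in Alzheimer's disease whose transgenes are driven in neurons by the Thy1 promoter, so the microglia themselves were not the cells for which the transgenes were designed. There were 7 libraries of wild-type microglia without dye (WT, labelled 2 months old), 5 of transgenic microglia without dye (TG Me-X04-, labelled 6 months old) and 4 of transgenic microglia that had taken up dye (TG Me-X04+, labelled 6 months old). All groups had received the dye. The study's methods give other ages than the labels do. By the labels age and genotype cannot be told apart in any comparison with WT, whereas the TG populations shared both, and the animal labels paired 4 of the TG Me-X04- libraries with the 4 TG Me-X04+ libraries.

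The mitochondrial ribosome translates the mRNAs of the mitochondrial genome, all of which encode subunits of oxidative phosphorylation (OXPHOS). Its rRNAs come from the mitochondrial genome, but every one of its proteins is encoded in the nucleus, made on cytosolic ribosomes and imported. Its proteins are therefore counterparts of the cytosolic ribosomal proteins (Rpl and Rps genes) in function, while its product is joined in the inner membrane to the nuclear OXPHOS subunits.

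Few genes of this family passed the test for a change with dye uptake. Of the 78 genes, 1 was differentially expressed (DE) between the TG populations, dye-laden against dye-free, where 5.49% of all genes were DE. Against WT, 0 were DE in the dye-free population (0.201% of all genes) and 3 in the dye-laden one (14.3% of all genes). Between the TG populations the DE gene was Mrps36, higher in TG Me-X04+ microglia, and its call was lost when the TG libraries were paired by animal. Against WT, Mrps36 and Mrpl30 were higher and Mrps31 was lower in TG Me-X04+ microglia. Mrpl30 and Mrps31 did not pass the test between the TG populations. The family's median log2 fold change (log2FC) was -0.05 between the TG populations, against a median of 1.11 for 80 cytosolic ribosomal protein genes in the same comparison. DE means an adjusted p below 0.05 with a log2FC of at least 0.7 in size, from limma's moderated test on the log2 RPKM (reads scaled by gene length and library size) with Benjamini-Hochberg adjustment over all 17951 genes.

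Reads on listed genes numbered 15623664 to 22119327 in WT, 17216633 to 25184600 in TG Me-X04- and 22430251 to 27579017 in TG Me-X04+ libraries, and the genes of the mitochondrial genome took 12.6% to 31.3%, 20.6% to 44.8% and 31.3% to 56.8% of them. When group means were removed, the leading principal component held 37.8% of the remaining variance, and along it the libraries fell into a set A of 7 (WT 1 to 3 with replicates 1 and 2 of each TG population) and a set B of 9 (WT 4 to 7 with the later replicates of each TG population). Which sequencer each library had been run on is not given in the sources used here, so the sets are named from the data only. The microglial markers fixed for this work were all listed, 12 of 12, and their summed level was 12.4 to 12.9 on the log2 scale in WT, 12.2 to 13.1 in TG Me-X04- and 12.5 to 13.1 in TG Me-X04+ libraries. Within them 1 was DE and higher and 1 DE and lower between the TG populations. In TG Me-X04+ against WT 1 was DE and higher and 2 were DE and lower. Of the markers of other brain and blood cells, 27 of 51 were listed. The summed level of astrocyte genes (5 of 6 listed) was 3.95 to 4.89 in WT, 3.81 to 4.82 in TG Me-X04- and 3.30 to 4.28 in TG Me-X04+. Oligodendrocyte genes (5 of 6 listed) reached 2.88 to 4.15, 3.79 to 3.99 and 3.43 to 3.88 in the same order. For oligodendrocyte precursors only Cspg4 was listed (1 of 4), at -6.39 to -2.27, -6.39 to -2.84 and -1.95 to 1.35. Cspg4 was DE and higher in TG Me-X04+ against either other group. Endothelial genes (3 of 6 listed) were at 1.20 to 3.66, 0.68 to 1.39 and 0.29 to 2.97. Of these, 1 was DE and higher between the TG populations, and 1 was higher and 1 lower in TG Me-X04+ against WT. Border macrophage genes (6 of 6 listed) reached 1.31 to 2.58, 0.80 to 2.78 and 1.47 to 4.38 in the same order, and pericyte markers were not listed, 0 of 4. Neuron genes (3 of 8 listed) were at -1.12 to 0.93, -0.98 to 0.01 and -3.23 to -1.03. Monocyte or neutrophil genes (3 of 6 listed) were at 1.26 to 3.98, 0.76 to 4.47 and 0.32 to 3.10. Each of these lists held 1 gene DE and lower in TG Me-X04+ than in WT. Of lymphocyte markers 1 of 5 was listed and was not DE. The part of other cells in the results below was not tested.

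The levels of the 78 genes in microglia were low to moderate. The mean log2 RPKM over the 16 libraries ran from -0.37 for Mrps26 to 4.29 for Mrpl24, with Mrpl24, Mrpl52 and Mrpl42 (4.29, 4.20 and 3.66) at the top and Mrps26, Mrpl23 and Mrps11 (-0.37, -0.26 and -0.25) at the bottom. These are levels per deposited gene length, so the order of the genes rests on that length. All of the family's reads together made up 0.0725% to 0.101% of the reads on listed genes in WT, 0.0616% to 0.122% in TG Me-X04- and 0.0443% to 0.0853% in TG Me-X04+ libraries. Outside the genes of the mitochondrial genome the shares were 0.101% to 0.131%, 0.101% to 0.155% and 0.0988% to 0.124%, and the groups overlapped. In 16 of the 78 genes at least 1 library had under 10 reads, and Mrpl28 had 0 reads in TG Me-X04+ 1. Low counts therefore limit part of the family: the median standard error (SE) of the log2FC between the TG populations was 0.58 in the 26 genes of lowest level and 0.33 in the 26 of highest level.

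The family was spread over the genome, with the most members on chromosome 11 (11 genes) and chromosome 17 (8 genes). Its promoters held several short motifs of factors known to act on nuclear genes for mitochondrial proteins. RefSeq promoter windows, from 250 bases before to 50 bases after a start site on GRCm38.p6, were given for 69 of the 78 genes, and both strands were searched. The NRF1 core CGCATGCG was in windows of 7 of the 69 genes (10.1%), against 2.07% of all 27025 genes with windows and 4.36% of the 9991 of them in the deposited table. The ETS core CCGGAAG, to which GABPA binds, was in 26 (37.7%), against 9.93% and 20.4%, and the YY1 core AAGATGGCG was in 8 (11.6%), against 1.64% and 3.63%. The TATA box TATAAA (5 genes, 7.25%, against 15.7% and 8.78%) and the E-box CACGTG of MYC (5 genes, 7.25%, against 8.09% and 11.5%) were not more common in the family than in all genes. The GC content of the windows had a median of 58.7% in the family, 52.7% in all windows and 60.3% in windows of listed genes. These shares describe letters in the windows and are no evidence of binding.

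The windows of the 3 DE genes and of the 3 genes of highest level are printed 5′ to 3′ along the gene, with any of the 5 motifs on either strand in capitals, because the first set holds the changes found here and the second the highest levels. The DE genes had none of the 5 motifs in their windows, and among the highest Mrpl52 had the reverse complement of the ETS core at 2 places and Mrpl42 had the YY1 core.
Mrps36, chr13:100744610-100744909, - strand: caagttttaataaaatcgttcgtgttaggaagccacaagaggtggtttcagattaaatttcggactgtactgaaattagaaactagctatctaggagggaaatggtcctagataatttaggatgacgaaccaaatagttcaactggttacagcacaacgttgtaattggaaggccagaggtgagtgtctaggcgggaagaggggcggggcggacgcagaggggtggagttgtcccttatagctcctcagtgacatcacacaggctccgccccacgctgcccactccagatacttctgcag
Mrpl30, chr1:37890227-37890526, + strand: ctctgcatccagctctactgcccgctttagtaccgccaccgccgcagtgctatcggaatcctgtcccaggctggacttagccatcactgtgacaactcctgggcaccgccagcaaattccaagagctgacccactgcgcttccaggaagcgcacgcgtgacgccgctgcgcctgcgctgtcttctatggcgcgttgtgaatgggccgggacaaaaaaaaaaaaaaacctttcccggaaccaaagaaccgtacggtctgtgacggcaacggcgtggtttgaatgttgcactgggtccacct
Mrps31, chr8:22411090-22411389, + strand: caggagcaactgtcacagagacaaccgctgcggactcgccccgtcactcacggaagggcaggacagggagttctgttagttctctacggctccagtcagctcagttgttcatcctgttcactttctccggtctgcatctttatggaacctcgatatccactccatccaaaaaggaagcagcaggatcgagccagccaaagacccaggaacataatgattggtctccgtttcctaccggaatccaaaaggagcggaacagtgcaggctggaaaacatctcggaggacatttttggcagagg
Mrpl24, chr3:87919294-87919593, + strand: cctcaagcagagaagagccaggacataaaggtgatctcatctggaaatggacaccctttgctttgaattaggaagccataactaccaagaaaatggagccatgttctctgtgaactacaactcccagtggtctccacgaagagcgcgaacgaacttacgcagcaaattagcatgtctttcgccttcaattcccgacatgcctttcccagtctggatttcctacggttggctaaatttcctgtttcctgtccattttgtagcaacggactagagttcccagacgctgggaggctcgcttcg
Mrpl52, chr14:54426659-54426958, + strand: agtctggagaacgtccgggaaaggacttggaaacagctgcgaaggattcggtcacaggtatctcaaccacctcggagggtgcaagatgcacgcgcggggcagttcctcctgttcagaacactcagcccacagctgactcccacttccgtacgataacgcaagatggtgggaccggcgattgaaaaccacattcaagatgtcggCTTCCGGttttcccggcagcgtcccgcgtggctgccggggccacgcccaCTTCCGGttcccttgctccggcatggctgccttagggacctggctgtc
Mrpl42, chr10:95501900-95502199, - strand: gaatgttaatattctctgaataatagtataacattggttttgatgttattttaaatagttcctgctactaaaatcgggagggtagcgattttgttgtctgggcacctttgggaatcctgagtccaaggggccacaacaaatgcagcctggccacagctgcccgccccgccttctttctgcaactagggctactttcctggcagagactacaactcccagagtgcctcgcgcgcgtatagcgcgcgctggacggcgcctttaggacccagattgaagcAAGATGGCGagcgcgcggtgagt

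The first comparison asked how dye-laden and dye-free microglia of the same transgenic mice differed. Of the 78 genes, 36 had a positive and 42 a negative log2FC between the TG populations (TG Me-X04+ relative to TG Me-X04-), with a median of -0.05 and quartiles of -0.41 and 0.31; over all 17951 genes the median was -0.09. DE genes numbered 1 (1.28%), against 5.49% of all genes tested, and the 1 higher gene stands against 3.44% of all genes DE and higher. At an unadjusted p below 0.05 there were 8 members (10.3%), 4 higher and 4 lower, against 18.7% of all genes. The values of the TG populations did not overlap in 1 gene (1.28%), again Mrps36, against 7.93% of all genes. For 21 of the 78 genes the 95% interval of the log2FC lay wholly within 1 unit of 0, so a change of 2-fold or more was outside the interval for these genes; for the other 57 it was not.

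**Figure D1:**
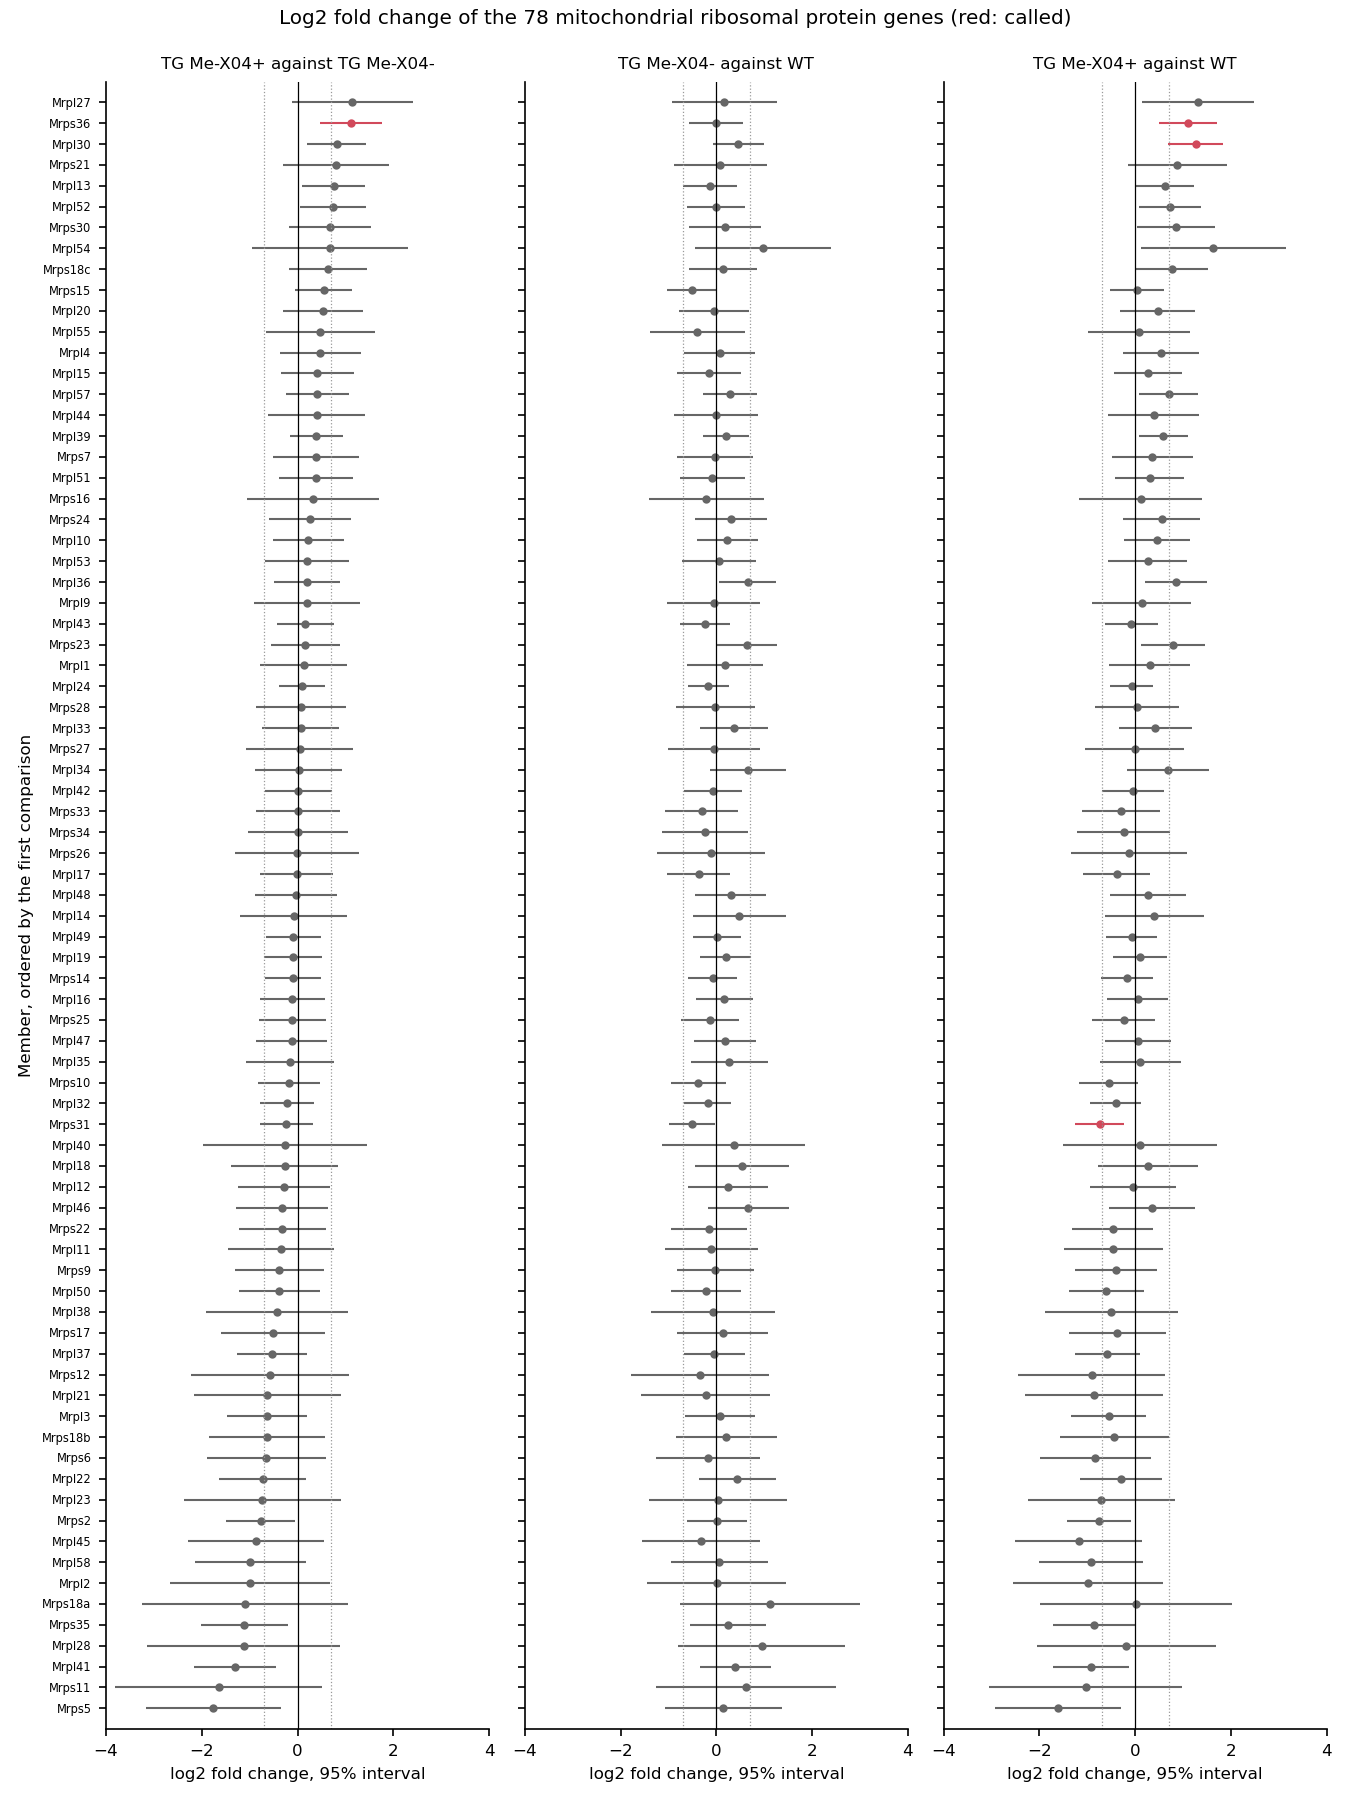
Log2 fold change (points) with its 95% interval (lines) of each of the 78 genes in the 3 comparisons, ordered by the TG Me-X04+ against TG Me-X04- comparison, with DE genes in red and dotted lines at 0.7 and -0.7. The points lie on both sides of 0 in every panel, from -1.76 (Mrps5) to 1.15 (Mrpl27) in the first, and only Mrps36, Mrpl30 and Mrps31 are red.

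Mrps36 carries a ribosomal name from its first purification, but its protein is now known as a subunit of the 2-oxoglutarate dehydrogenase complex of the citric acid cycle, where it ties the E3 component to the core. The gene lies at chr13:100735955-100744659 on the minus strand (GRCm38). Its log2 RPKM was 1.86, 2.78, 2.53 and 2.50 in TG Me-X04+ 1 to 4, and 1.35, 1.03, 1.63, 1.42 and 1.06 in TG Me-X04- 1 to 5. In WT it was 1.23, 0.44, 1.78, 1.31, 1.94, 1.21 and 1.21. The lowest TG Me-X04+ library stood above every TG Me-X04- library and below 1 WT library, WT 5. The log2FC was 1.12 (SE 0.31, 95% interval 0.47 to 1.77, limma adjusted p = 0.042) between the TG populations and 1.11 (SE 0.29, limma adjusted p = 0.014) against WT, and the difference of means was alike in both sets, being 1.13 (set A) and 1.14 (set B) in the first of these. With animal as a block within the 9 TG libraries the first log2FC was 1.06 with a limma adjusted p of 0.11, so the call was lost in the paired fit. The call was lost too with replicate number as a block over all libraries (limma adjusted p = 0.082), where WT libraries share only a number with TG libraries. Scaling to reads outside the genes of the mitochondrial genome lost it as well (log2FC 0.84, limma adjusted p = 0.13). It was also lost when the fit held the TG libraries alone (limma adjusted p = 0.076) and with voom weights (limma adjusted p = 0.052). Leaving out any of 8 of the 9 TG libraries lost it (limma adjusted p between 0.028 and 0.12 over the 9). Over all 16 libraries, WT included, it was lost for 12 of those left out. The call against WT was lost under the block over all libraries (limma adjusted p = 0.052) and without TG Me-X04+ 2 (limma adjusted p = 0.050).

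Reads of Mrps36 could also map to its processed pseudogenes, and whether reads with several positions were counted is not given in the sources used here. Mrps36-ps1 (chromosome 17, 306 bases) had 77 to 214 reads in TG Me-X04+ libraries, 32 to 90 in TG Me-X04- and 17 to 97 in WT, and Mrps36-ps2 (chromosome 7, 309 bases) had 21 to 44, 4 to 34 and 6 to 38. Their log2FC between the TG populations was 1.45 (limma adjusted p = 0.050) and 1.11 (limma adjusted p = 0.16). The adjusted p of Mrps36-ps1 was just above the threshold. The 3 rows moved the same way, and the split of reads among them was not tested.

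Mrpl30, a protein of the large subunit with a bacterial counterpart, lies at chr1:37890477-37898535 on the plus strand. It was the family's clearest difference against WT. Its log2 RPKM was 3.05, 2.92, 3.12 and 2.31 in TG Me-X04+ 1 to 4, and 0.88, 1.40, 1.97, 1.59, 1.82, 1.59 and 1.84 in WT 1 to 7. Every TG Me-X04+ library stood above every WT library, and the log2FC was 1.27 (SE 0.27, 95% interval 0.70 to 1.84, limma adjusted p = 0.0036), with differences of 1.57 (set A) and 1.00 (set B). TG Me-X04- libraries were between, at 1.73, 2.80, 1.94, 1.97 and 1.75, and the second of them stood apart from the other 4. Between the TG populations the log2FC was 0.81 (SE 0.29, limma adjusted p = 0.12). Without TG Me-X04- 2 it was 1.00 and the limma adjusted p was 0.047.

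Mrps31, a small-subunit protein particular to mitochondria, lies at chr8:22411361-22429665 on the plus strand. Its log2 RPKM was 2.00, 2.16, 2.52 and 3.01 in TG Me-X04+ 1 to 4 and 3.60, 2.65, 2.95, 3.67, 3.20, 2.96 and 3.10 in WT 1 to 7. The TG Me-X04- libraries, at 2.40, 2.68, 2.68, 2.50 and 3.03, lay between these groups and overlapped both. The log2FC against WT was -0.74 (SE 0.24, 95% interval -1.25 to -0.23, limma adjusted p = 0.049), with differences of -0.99 (set A) and -0.47 (set B). This call stood at the threshold and was lost under 7 of 14 alternative settings, and when any of 8 of the 11 TG Me-X04+ and WT libraries was left out (limma adjusted p between 0.018 and 0.14 over the 11).

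**Figure D2:**
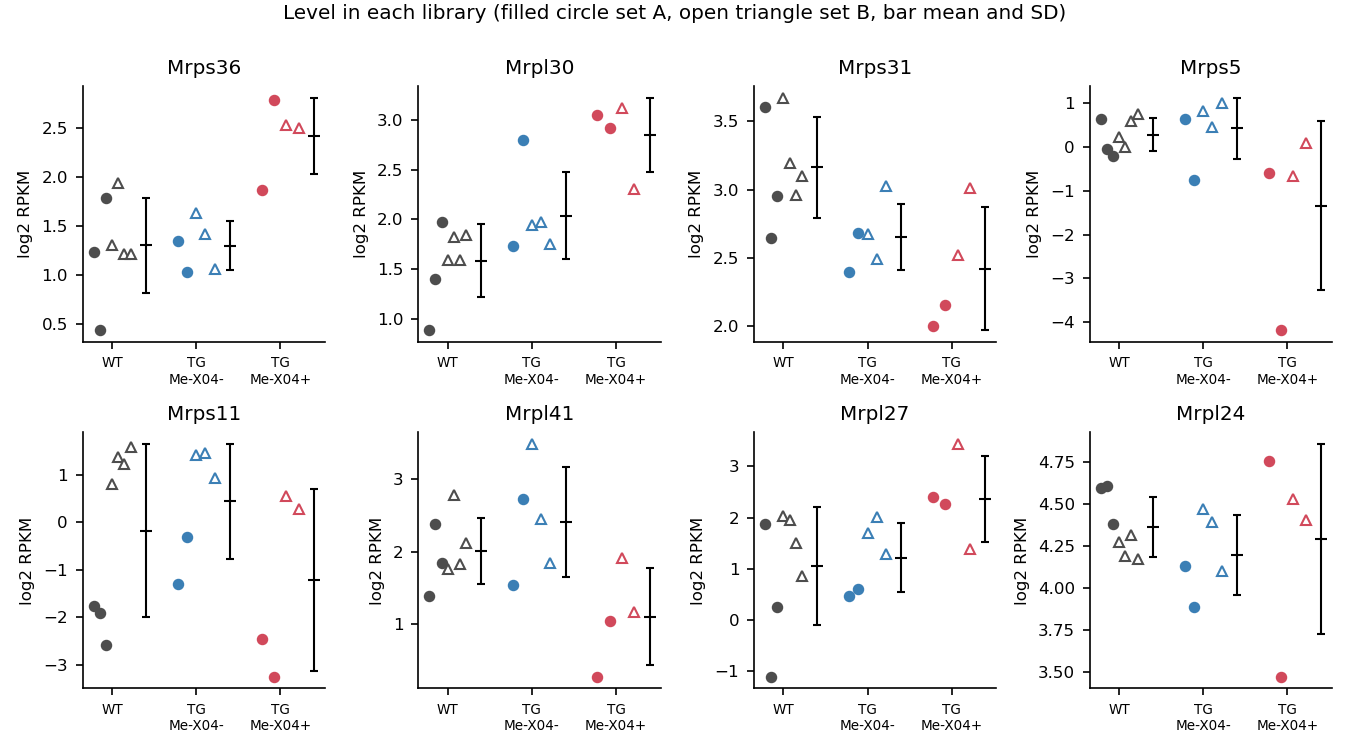
Log2 RPKM in each of the 16 libraries for the 3 DE genes (Mrps36, Mrpl30, Mrps31), the lowest and highest log2FC between the TG populations (Mrps5, Mrps11, Mrpl41, Mrpl27) and the gene of highest level (Mrpl24), with filled circles for set A, open triangles for set B and bars for the group mean and SD. Each panel has its own vertical scale; TG Me-X04+ lies above all TG Me-X04- values only for Mrps36, and set A libraries lie far below set B for Mrps11 in every group.

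The lowest log2FC values between the TG populations did not pass the test. Mrps5, the counterpart of the bacterial protein at the mRNA entrance of the small subunit, was at -0.60, -4.18, -0.66 and 0.09 log2 RPKM in TG Me-X04+ 1 to 4 and at 0.63, -0.77, 0.82, 0.44 and 1.00 in TG Me-X04- 1 to 5. The value of -4.18 came from 4 reads, and the groups overlapped. The log2FC was -1.76 (SE 0.67, limma adjusted p = 0.15).

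Mrps11, which sits in the platform of the small subunit, had log2 RPKM values of -2.45, -3.24, 0.56 and 0.28 in TG Me-X04+ 1 to 4 and of -1.30, -0.31, 1.40, 1.46 and 0.93 in TG Me-X04- 1 to 5. In WT the values were -1.76, -1.91 and -2.58 in the 3 libraries of set A and 0.81 to 1.58 in the 4 of set B. The sets differed by more than the groups did, and the log2FC between the TG populations was -1.65 (SE 1.02, limma adjusted p = 0.42), being -2.04 (set A) and -0.84 (set B). With set as a term in the fit, Mrps11 was DE. Its exons share 173 bases with Mrpl46, which is transcribed from the opposite strand, and whether the counting used strand is not given in the sources used here.

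Mrpl41, a large-subunit protein also described in apoptosis, was at 0.28, 1.04, 1.91 and 1.18 log2 RPKM in TG Me-X04+ 1 to 4 and at 1.54, 2.73, 3.48, 2.45 and 1.84 in TG Me-X04- 1 to 5. Only TG Me-X04+ 3 reached into the range of the other group. The log2FC was -1.30 (SE 0.40, 95% interval -2.15 to -0.46, limma adjusted p = 0.070). With animal as a block in the TG libraries it was -1.44 and the limma adjusted p was 0.024, so in that paired fit Mrpl41 was the DE member and Mrps36 was not.

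Mrpl27, a large-subunit protein with a bacterial counterpart near the peptidyl transferase centre, had the highest log2FC between the TG populations, 1.15 (SE 0.60, limma adjusted p = 0.32). Its log2 RPKM was 2.39, 2.26, 3.43 and 1.38 in TG Me-X04+ 1 to 4 and 0.47, 0.61, 1.69, 2.01 and 1.29 in TG Me-X04- 1 to 5, so the groups overlapped. Against WT its log2FC was 1.31 (SE 0.56, limma adjusted p = 0.13), and that of Mrpl54, a large-subunit protein particular to mitochondria, was 1.64 (SE 0.72, limma adjusted p = 0.15), the highest of the family in that comparison. Mrpl54 had 2 reads in WT 2 and 133 in TG Me-X04+ 4.

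Genes chosen for their roles mostly had intervals that held 0 between the TG populations. The exceptions were Mrps2, whose interval lay wholly below 0, and Mrps36 and Mrpl41, described above. In the decoding region of the small subunit, Mrps12, the counterpart of bacterial S12, had a log2FC between the TG populations of -0.57 (95% interval -2.22 to 1.08). For Mrps7 of the head it was 0.39 (-0.52 to 1.29). Mrps2 and Mrps16, for which human mutations that impair mitochondrial translation are known, had -0.77 (-1.49 to -0.05) and 0.33 (-1.05 to 1.70). Mrps22 and Mrps34, also disease genes in humans, had -0.32 (-1.22 to 0.59) and 0.00 (-1.04 to 1.04). Mrps30, whose protein is now placed in the large subunit and known also as PDCD9, had 0.68 (-0.19 to 1.54), and Mrps15, 0.54 (-0.05 to 1.14). Apart from Mrps36, none of these passed the test in any comparison.

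Among large-subunit genes, Mrpl3, near the peptidyl transferase centre, had a log2FC between the TG populations of -0.64 (95% interval -1.48 to 0.20). Mrpl10 and Mrpl12 form the stalk that recruits translation factors, and had 0.23 (-0.51 to 0.96) and -0.28 (-1.24 to 0.67). Mrpl11 at the base of that stalk had -0.34 (-1.45 to 0.77). Mrpl44, which resembles an RNase III, had 0.40 (-0.62 to 1.41), and Mrpl58, a peptidyl-tRNA hydrolase that frees stalled chains, had -0.99 (-2.15 to 0.18). None passed the test in any comparison. The most precise estimate was that of the gene of highest level: Mrpl24, a large-subunit protein with a bacterial counterpart, was at 4.29 ± 0.56 log2 RPKM (SD, n = 4) in TG Me-X04+ libraries, at 4.20 ± 0.24 (SD, n = 5) among TG Me-X04- libraries and at 4.36 ± 0.18 (SD, n = 7) among WT libraries, with a log2FC between the TG populations of 0.09 (-0.39 to 0.58). Mrpl24 shares 26.3% of its exon bases with Rrnad1 on the opposite strand. In all, 17 members share at least 10% of their exon bases with another listed gene, among them Mrps34 with Mapk8ip3 (63.4%) and Mrps25 with Nr2c2 (69.8%), and their counts are uncertain to that extent.

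As a description, level per length and change went together within the family. Across the 78 genes the correlation of the log2FC between the TG populations with the mean log2 RPKM was r = 0.45 (Spearman's rho 0.45), against r = 0.26 (rho 0.28) across 17951 genes. With the mean log2 reads per library in place of the level per length it was r = 0.18 (rho 0.17) for the family and r = 0.21 (rho 0.23) for all genes. Genes are not independent replicates, all points come from the same libraries, and no test was made. The 26 genes of lowest level had a median log2FC of -0.46 with 20 negative, the 26 of middle level 0.03 and the 26 of highest level 0.06. In the 2 TG Me-X04+ libraries of set A, 8 and 4 of the 78 genes had under 10 reads, against 1 and 0 in the 2 of set B. By symbol the medians were -0.10 for 29 Mrps genes and -0.03 for 49 Mrpl genes. The difference between them was not tested.

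**Figure D3:**
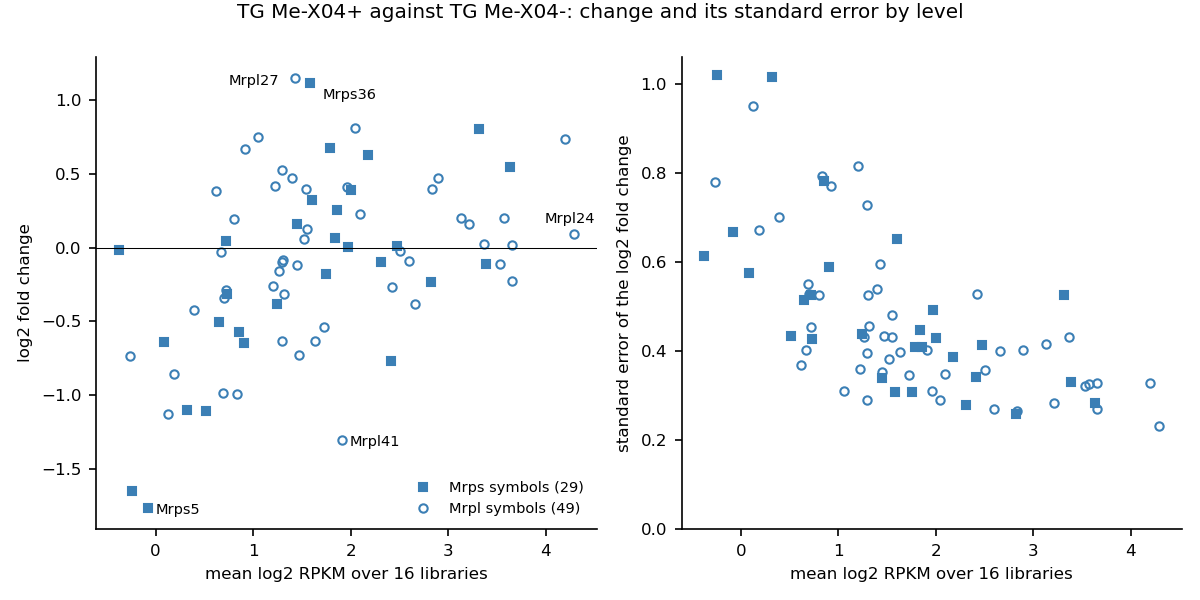
Left, log2 fold change of TG Me-X04+ relative to TG Me-X04- against mean log2 RPKM for each of the 78 genes, with filled squares for Mrps and open circles for Mrpl symbols; right, its standard error against the same level. Standard errors reach 1.02 at the lowest levels and are near 0.23 for Mrpl24, and the most negative changes are among genes of low level.

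The second comparison, of TG Me-X04- microglia with WT, addressed genotype, and age with it, apart from dye uptake. No member was DE by limma, 0 of 78, against 0.201% of all genes; at an unadjusted p below 0.05 there were 3 (3.85%) against 5.18%, and limma with voom weights on the recovered reads also called 0. The 3 were Mrps31 (log2FC -0.51), Mrps23 (0.64) and Mrpl36 (0.65), with limma adjusted p of 0.93, 0.95 and 0.91. The groups overlapped in every member, 0 of 78, against 1.06% of all genes without overlap. The median log2FC was 0.02 (0.01 over all genes), with 42 positive and 36 negative, and for 36 of the 78 genes the 95% interval lay within 1 unit of 0. The lowest values were those of Mrps31, Mrps15 (-0.51) and Mrpl55 (-0.40), and the highest were those of Mrps18a (1.12, SE 0.89), Mrpl54 (0.97, SE 0.67) and Mrpl28 (0.95, SE 0.83).

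The third comparison set TG Me-X04+ microglia against WT, and it shares its samples with the other 2. DE members numbered 3 of 78 (3.85%), against 14.3% of all genes. The 2 higher genes stand against 8.25% of all genes DE and higher, and the 1 lower gene against 6.02% DE and lower. At an unadjusted p below 0.05 there were 17 members (21.8%), 12 higher and 5 lower, against 27.8%. The groups did not overlap in 1 member, Mrpl30 (1.28%), against 10.5%. The median log2FC was 0.03 (-0.11 over all genes), -0.23 for 29 Mrps genes and 0.10 for 49 Mrpl genes, and the lowest values were those of Mrps5 (-1.61), Mrpl45 (-1.18) and Mrps11 (-1.03). With set as a term in the fit, 9 members were DE in this comparison, 8 of them higher: Mrpl27, Mrpl30, Mrpl34, Mrpl36, Mrpl52, Mrpl54, Mrps21 and Mrps36. In that fit 21.8% of all genes were DE.

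The genes of the cytosolic ribosome gave other counts. Of 80 cytosolic ribosomal protein genes, 28 (35%) were DE and higher in the dye-laden TG population than in the dye-free one and 0 were lower, and against WT 62 were DE and higher and 0 lower (77.5%). Their median log2FC was 1.11 and 1.60, where that of the 78 mitochondrial ribosomal protein genes was -0.05 and 0.03. Rpl19, a protein of the large cytosolic subunit, had a log2FC of 1.37 (SE 0.27, limma adjusted p = 0.0059) between the TG populations. The library medians showed the same: for the cytosolic list they were 2.68 to 3.77 in WT, 3.15 to 4.28 in TG Me-X04- and 4.23 to 5.08 in TG Me-X04+, and for the mitochondrial list 1.23 to 1.81, 1.42 to 2.03 and 1.68 to 1.96. On that measure, with both sets together, the mitochondrial list overlapped between all groups, while the cytosolic list did not overlap between TG Me-X04+ and WT. Inside set A the mitochondrial medians of TG Me-X04+ (1.68 and 1.71) were above those of WT (1.23 to 1.57) and TG Me-X04- (1.46 and 1.61). Inside set B the mitochondrial medians of TG Me-X04+ overlapped those of both other groups. The cytosolic genes are of higher level than the mitochondrial ones, and the difference between the lists itself was not tested.

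**Figure D4:**
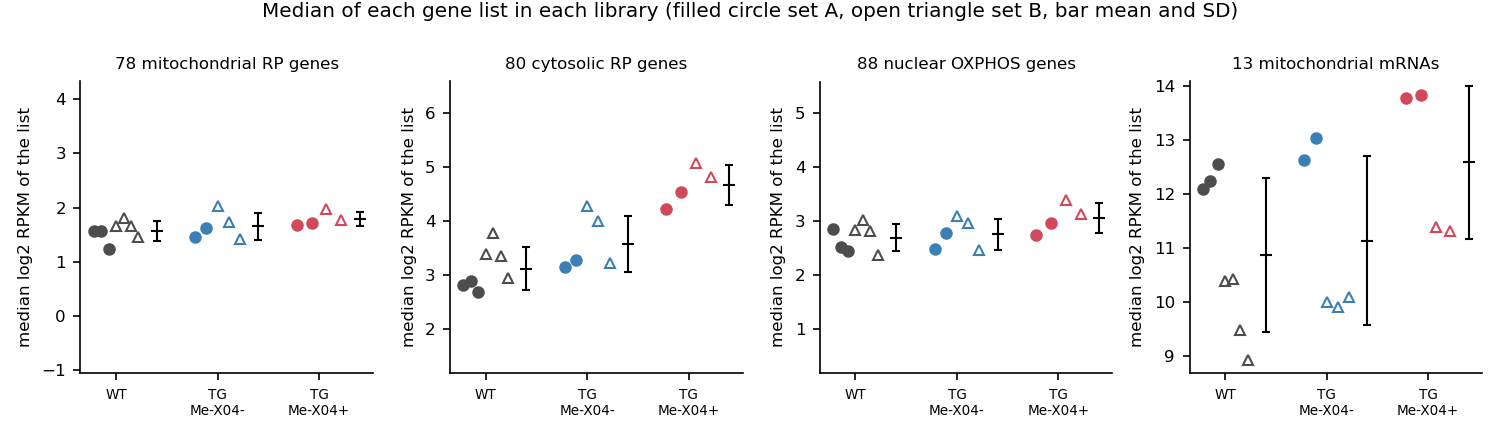
Median log2 RPKM of 4 gene lists in each library, by group, with filled circles for set A, open triangles for set B and bars for the mean and SD; all panels span the same number of log2 units. The medians of the 78 mitochondrial ribosomal protein genes stay between 1.23 and 2.03, those of the 80 cytosolic genes run from 2.68 to 5.08, and those of the 13 mitochondrial mRNAs separate by set.

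The DE nuclear OXPHOS genes were all higher in TG Me-X04+ microglia. Of 88, 7 were DE between the TG populations (7.95%) and 11 against WT (12.5%), with medians of 0.50 and 0.64. Of all genes 3.44% and 8.25% were DE and higher in these comparisons, and 5.49% and 14.3% were DE in either direction. Ndufa1, an accessory subunit of complex I, had a log2FC of 2.53 (limma adjusted p = 0.0023) between the TG populations. All 13 mitochondrial mRNAs, the templates of the mitochondrial ribosome, had a positive log2FC between the TG populations with a median of 1.44, but only mt-Nd3 passed the test (1.04, limma adjusted p = 0.049), and against WT mt-Nd3 and mt-Co3 did (1.45 and 1.41). The medians of these mRNAs differed by set, at 13.8 and 13.8 in TG Me-X04+ 1 and 2 and 11.4 and 11.3 in TG Me-X04+ 3 and 4. The mitochondrial rRNAs mt-Rnr1 and mt-Rnr2 had values of 1.29 (SE 1.28) and 1.16 (SE 1.54) and did not pass the test. With animal as a block in the TG libraries both were DE, at 1.07 (limma adjusted p = 0.015) and 1.00 (limma adjusted p = 0.030), and against WT both were DE under 4 of 14 alternatives, with limma adjusted p as low as 0.0034 and 0.0075.

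Genes that build or serve the mitochondrial ribosome showed few calls. Of 27 assembly and rRNA modification genes, 15 translation factors, 12 genes of mitochondrial DNA transcription and replication, 9 regulators of mitochondrial biogenesis and 5 ribosomal proteins listed under other names, 0 of 68 were DE by limma in any comparison, nor by limma with voom weights. Over all genes 5.49%, 0.201% and 14.3% were DE in the 3 comparisons. At an unadjusted p below 0.05 there were 0, 1 and 1 of the 68, against 18.7%, 5.18% and 27.8% of all genes. The 1 in the second comparison was Tfb1m, and in the third it was Nrf1 (log2FC -1.04 against WT, limma adjusted p = 0.096). The medians of these lists between the TG populations were -0.36, -0.04, -0.17, -0.09 and -0.20. Tufm, the mitochondrial elongation factor that delivers tRNA, had 0.12 (SE 0.45), and Lrpprc and Slirp, which together stabilise mitochondrial mRNAs, had -0.03 (SE 0.18) and 0.62 (SE 0.32). Tfam, which packages and transcribes mitochondrial DNA, had -0.63 (SE 0.42), and Polrmt, the mitochondrial RNA polymerase, -0.12 (SE 0.45). Nrf1, Gabpa, Myc and Ppargc1b, regulators of nuclear genes for mitochondria, had -0.63 (SE 0.43), -0.10 (SE 0.31), 0.07 (SE 0.38) and -0.90 (SE 1.07). Among 20 mitochondrial aminoacyl-tRNA synthetases, Yars2 fell by 1.01 on the log2 scale between the TG populations (limma adjusted p = 0.033) and by 0.76 against WT (limma adjusted p = 0.046). Lars2 had 1.11 between the TG populations (limma adjusted p = 0.062) and rose against WT (1.22, limma adjusted p = 0.012).

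**Figure D5:**
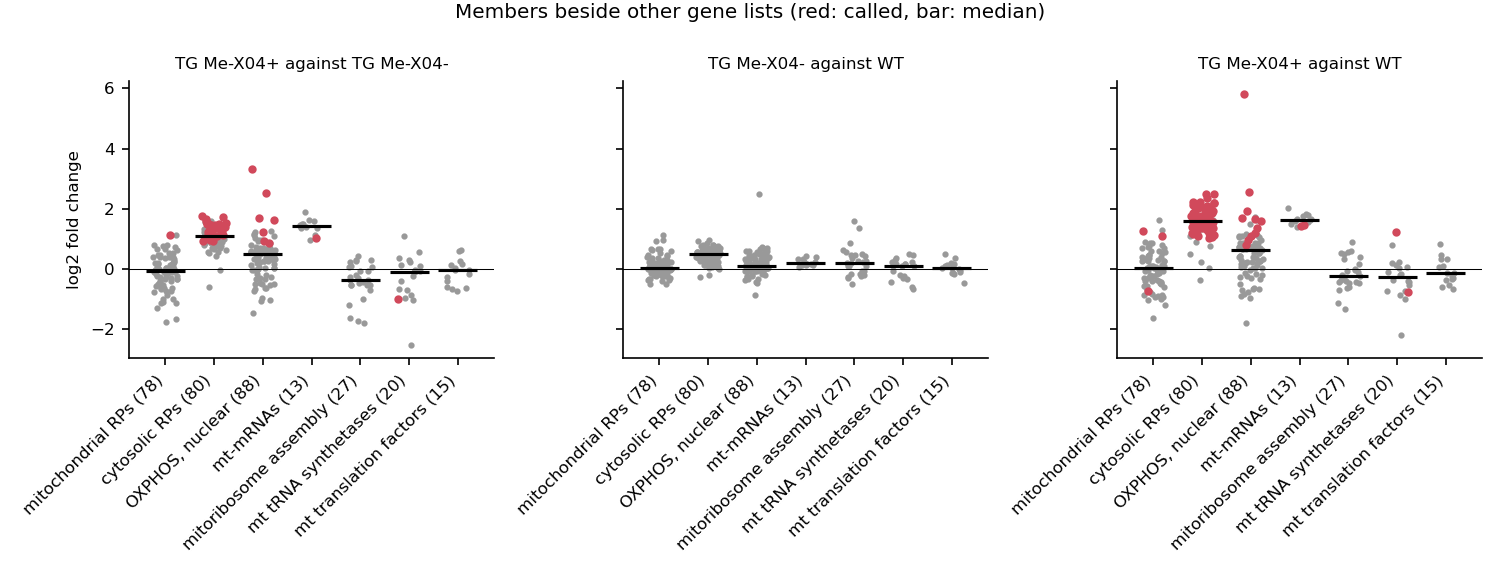
Log2 fold change of every gene of 7 lists in the 3 comparisons (points, red where DE; bar, list median; number of genes in parentheses). The 78 mitochondrial ribosomal protein genes (mitochondrial RPs) centre on medians of -0.05, 0.02 and 0.03, and the 80 cytosolic ones on 1.11, 0.50 and 1.60.

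The scale of the deposited values bears on any direction stated for the whole family. When each library was scaled to its reads outside the genes of the mitochondrial genome, the median log2FC between the TG populations became -0.33 for the 78 genes and -0.37 for all genes, and against WT -0.13 and -0.27. In bulk RNA from sorted cells, less RNA per cell and a different make-up of the sort cannot be told apart.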

How the data were processed

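RNA of sorted microglia was measured by RNA-seq in 16 mouse libraries. Per the labels and methods, the authors amplified RNA with the Ovation kits, trimmed reads with Trim Galore 0.4.4, aligned them with STAR 2.5.4b to GRCm38, counted them with featureCounts, filtered low counts and scaled libraries by TMM with edgeR 3.24.3. The deposited values are log2 RPKM with a small prior count, and the table also holds the authors' fold changes and p-values, which were not used. Me-X04+ and Me-X04- libraries and WT were compared in 1 fit (limma 3.58.1, R 4.3.3, moderated test with a variance trend, Benjamini-Hochberg over 17951 genes). Reads were recovered from the steps of the values (100% whole within 0.01), which gave the depths. The main fit held no block, so its counts, SE, intervals and adjusted p between the TG populations are unpaired. TG libraries of the same animal label were taken as pairs only in an alternative fit. Its values stand beside the results for Mrps36, Mrpl41, mt-Rnr1 and mt-Rnr2. Blocked values are not given for the cytosolic ribosomal, OXPHOS, mitochondrial mRNA and tRNA synthetase genes. The correlation of deviations was 0.29 to 0.33 in the 4 pairs. Between dye-laden and dye-free libraries with different numbers it was 0.22 to 0.33 inside a set (6 combinations). Across the sets it was -0.35 to -0.18 (10 combinations). The pairing thus rests on the labels, because these correlations do not tell animal from set. p-values measure the spread between libraries. Chromosome positions are from GENCODE on GRCm38.

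Members and lists were chosen with earlier results of these data known. Named are the members called, the 3 highest and 3 lowest in level and in each comparison's log2FC, and members fixed for their roles, besides regulators fixed by name and called genes of the lists. Other genes named, such as Mrps23 and Mrpl36, were chosen after their values were seen. In simulated data for all 17951 genes, 98 of 200 changed genes were called, with 8 unchanged genes called besides. The changed genes were drawn only from genes above a minimum level, and all were changed by the same amount. The simulated libraries had no split into sets and no shared animals. The share called is therefore not the power of the test for this family. Alternatives varied scaling, pseudocount, low-value filter, variance model, block and libraries.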

Additional observations from a re-analysis of the deposited data

Results flagged for a closer look

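Of 96 sets of values tested (31 named members and the family's median in each of 3 groups), 4 held a library farther from the others than Dixon's limit allows, where chance marks about 1 in 20. Mrpl30, a large-subunit protein, was at 2.80 log2 RPKM in TG Me-X04- 2 (444 reads), above the next library at 1.97. Mrpl44, which resembles an RNase III, was at -0.77 in WT 3 (13 reads), below the next at 1.47. Mrps34, a small-subunit protein, was at 3.39 in WT 5 (551 reads), above the next at 2.29, and 63.4% of its exon bases are shared with Mapk8ip3. Mrpl42, one of the members of highest level, was at 2.95 in WT 7 (122 reads), below the next at 3.58. Without TG Me-X04- 2 the log2FC of Mrpl30 between the TG populations was 1.00 (limma adjusted p = 0.047) in place of 0.81.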

How the results depend on the processing

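The median log2FC of the members stayed within 1 SD of the library medians under every alternative except scaling to reads outside the mitochondrial genome, where it was -0.33 between the TG populations and -0.13 for TG Me-X04+ against WT. Elsewhere it ran from -0.12 to 0.04 and from -0.10 to 0.13 in these comparisons, so its sign is not settled, and from -0.04 to 0.15 in TG Me-X04- against WT. The count of members called moved with the setting. Between the TG populations (1 in the report) it was 2 with array weights or with the length trend removed (5.9% and 6.26% of all genes called). It was 0 with only the groups compared in the fit (2.62% of all genes) and 0 with voom weights on recovered reads (5.71%, 1025 genes). With set as a term it was 4 (11.9% of all genes), and it was 0 to 1 when 1 library was left out (3.08% to 6.13% of all genes). With the replicate block over all libraries it was 0 (4.98% of all genes). The block by animal in the TG libraries gave 1 (6.01% of all genes), then Mrpl41, which was lower. Scaling to reads outside the mitochondrial genome gave 1 (5.74% of all genes), again Mrpl41 and not Mrps36. In TG Me-X04+ against WT (3 in the report) it was 5 under the replicate block over all libraries (14.1% of all genes) and 9 with set as a term (21.8%). It was 2 to 5 when 1 library was left out (11.8% to 14.5% of all genes), 5 without TG Me-X04+ 4 (14.5%). In alternatives chosen after seeing the data, set A alone gave 0 in both of these comparisons (0.474% and 9.2% of all genes). Set B alone gave 5 between the TG populations and 10 against WT, where 12.6% and 20.3% of all genes were called. In TG Me-X04- against WT the count was 0 under every setting run, where at most 0.975% of all genes were called. WT numbers share only a number with TG numbers, and WT libraries correlated with TG libraries of the same set. Leaving out members annotated as pseudogenes could not be run because there were none.

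Single genes were followed through the alternatives only for the 31 named members and the other genes fixed by name, such as Tfam and mt-Rnr1. The called genes of the other lists (Rpl19, Ndufa1, mt-Nd3, mt-Co3, Yars2 and Lars2) were not followed. Among the genes followed, the calls lost were in Mrps36 and Mrps31, besides the left-out libraries. Mrps36 between the TG populations was lost under 5 of 15 alternatives. Mrps31 against WT was lost under 7 of 14, and Mrps36 against WT under 1 of 14. A call was gained in 28 gene and setting pairs, among them Mrpl41 between the TG populations under 4 of 15 alternatives and 10 pairs of mt-Rnr1 and mt-Rnr2 (the block by animal between the TG populations; no variance trend, robust eBayes, set as a term and voom weights against WT), and no called gene changed sign. Counts under 10 reads in 16 members limit the smallest levels, and wide intervals in 57 members leave a 2-fold change between the TG populations within the interval.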
